A study of Gallus gallus with 6 samples.

Results

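The 6 transcripts described here are the mitochondrially encoded subunits of the respiratory chain complexes III and IV and of the ATP synthase (complex V): CYTB, COX1, COX2, COX3, ATP8 and ATP6. They were chosen by target identifier, 6 of 25752 targets, by a rule that uses no measured level. Earlier results of these data were, however, known when the choice was made. They were followed in 6 libraries, each from 1 otocyst, the vesicle from which the inner ear develops, of White Leghorn chicken embryos at embryonic day 2.5. The 3 IWR-1 otocysts (embryos 35, 39 and 40) were right otocysts cultured with 300 µM IWR-1 for 24 h. The 3 DMSO otocysts were left otocysts of embryos with the same numbers, cultured with the solvent DMSO for the same time. The compound IWR-1 inhibits the canonical Wnt pathway: it stabilises Axin, the scaffold on which beta-catenin is marked for degradation. All otocysts had been freed of surrounding mesenchyme and floated singly in culture, per the labels' protocols. Every IWR-1 otocyst was a right one and every DMSO otocyst a left one, so the compound and the body side cannot be told apart.

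Mitochondria carry their own small circular genome. In vertebrates it is transcribed into long precursors that are cut into separate messenger RNAs, which then receive poly(A) tails. Cytochrome b (CYTB) is the mitochondrially encoded subunit of complex III, which passes electrons from ubiquinol to cytochrome c. COX1, COX2 and COX3 form the core of complex IV, cytochrome c oxidase, which hands those electrons to oxygen. ATP6 and ATP8 belong to the membrane part of the ATP synthase, through which protons flow back, and their reading frames overlap on a shared messenger RNA. The other subunits of these complexes are encoded in the nucleus.

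The identity of the transcripts rests on their order and length, because the files give identifiers without gene names. The first 13 targets of each table were set against the 13 mitochondrial protein genes of the RefSeq annotation of the assembly GRCg7b, taken in genome order. Length was equal for 10 of the 13, and for 5 of the 6 transcripts described here. ENSGALT00000053400.1 (CYTB, 1143 bases), ENSGALT00000054328.1 (COX2, 684 bases), ENSGALT00000061564.1 (COX3, 784 bases), ENSGALT00000054361.1 (ATP8, 165 bases) and ENSGALT00000076413.1 (ATP6, 684 bases) each stood at the place of a gene of the same length. ENSGALT00000053568.1 (COX1) had 1548 bases, against 1551 in RefSeq. COX2 and ATP6 have the same length, so only their place separates them. The estimated counts of all 6 were whole numbers in all 6 libraries, that is, within 1e-06 of an integer, so no fractional share of a read was assigned to them.

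The libraries held 12974103 to 14967209 estimated counts in IWR-1 and 10060014 to 15217029 in DMSO. The IWR-1 library of embryo 40 had a mean fragment length of 191.9 bases and the DMSO library of embryo 39 one of 182.4 bases, as read from length minus effective length. The other 4 libraries had 211.0 to 212.1 bases. The tissue could not be checked against otic, mesenchymal, neural or blood markers, since 0 identifiers were matched to a name by ID. Nuclear subunits of the same complexes were not analysed here for that reason. Nothing in the labels tells whether the embryos came from separate batches of eggs, so the p-values below measure the spread among these 3 embryos.

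By TPM, the scale defined below, all 6 transcripts were among the most abundant in the otocyst. In whole-otocyst RNA, the number of cells or mitochondria that carry a transcript and its amount in each cannot be told apart. On the TPM scale, which divides each count by the effective length of its target and scales every library to the same sum, COX3 was the highest of the 6 in every library. It had 14069, 16018 and 17774 TPM in the IWR-1 otocysts of embryos 35, 39 and 40, against 15624, 12400.2 and 15699.5 TPM in the DMSO otocysts of the same embryos. Its rank by TPM among all 25752 targets was between 1 and 3. COX2 was second among the 6 in every library, at 9920.0 ± 485 TPM in IWR-1 and 8883 ± 2258 TPM in DMSO (SD, n = 3 each). ATP6 followed COX2 in every library, at 8066 ± 835 TPM in IWR-1 and 7233 ± 1595 TPM in DMSO (SD, n = 3 each). COX1 was the lowest of the 6 in every library, at 4729.5 ± 240.2 TPM in IWR-1 and 3938 ± 952 TPM in DMSO (SD, n = 3 each), and even so its rank among all targets was never below 21.

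The position of ATP8 and CYTB between them was less settled. ATP8 had 6142 ± 842 TPM in IWR-1 and 5235 ± 935 TPM in DMSO, and CYTB had 5229.5 ± 610.2 TPM in IWR-1 and 5022 ± 795 TPM in DMSO (SD, n = 3 each). ATP8 exceeded CYTB in 5 of 6 libraries, by at most 1.20 times, and the exception was the DMSO library of embryo 40, with 5474 TPM for ATP8 and 5511 TPM for CYTB. Within IWR-1 and within DMSO, the ranges of ATP8 and CYTB over the otocysts overlapped. CYTB in turn exceeded COX1 by 1.04 to 1.42 times in all 6 libraries, although the ranges of CYTB and COX1 over the libraries overlapped. The other steps in the order held in all 6 libraries, with COX3 over COX2 at 1.43 to 1.92 times, COX2 over ATP6 at 1.17 to 1.33 times and ATP6 over ATP8 at 1.24 to 1.42 times. The last step compares targets that lie on a shared messenger RNA, so it cannot be read as a difference between messenger RNAs.

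The place of ATP8 depended on how length was taken into account. At 165 bases it is shorter than the mean fragment of every library, and the tables gave it an effective length of only 53.2 to 59.5 bases. Divided by the full length instead, ATP8 had 20454.5, 21703 and 27606 estimated counts per 1000 bases in the IWR-1 otocysts of embryos 35, 39 and 40, against 21485, 19406 and 15612 in the DMSO otocysts. On that scale it was the lowest of the 6 in every library, and COX1 exceeded it 1.75 to 2.23 times. In raw terms ATP8 received 2576 to 4555 estimated counts per library, while each of the other 5 received at least 29454. Among all targets, ATP8 ranked between 5 and 15 by TPM and between 495 and 972 by estimated counts. The places of COX3, COX2 and ATP6 were the same on both scales. CYTB and COX1 followed them per full length, with CYTB above COX1 in 5 of 6 libraries.

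**Figure D1:**
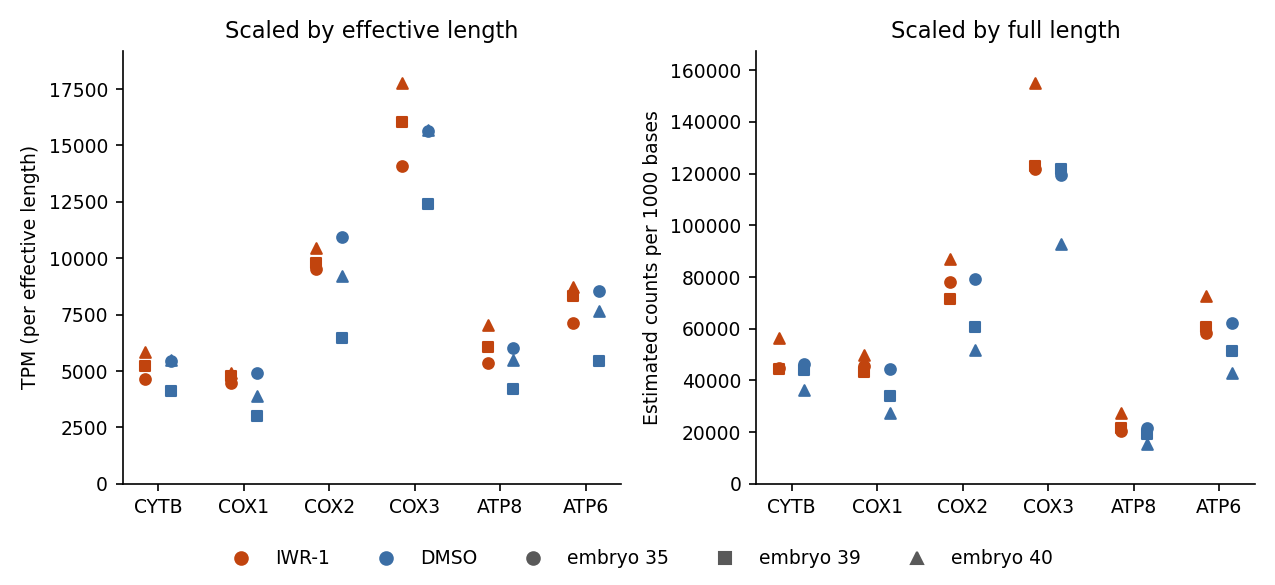
Level of each transcript in each library, in TPM (left) and in estimated counts per 1000 bases of full length (right). Symbols stand for embryos and colours for IWR-1 and DMSO. COX3 is highest on both scales. On the left, ATP8 (4204 to 7028 TPM) lies above CYTB (4105 to 5853 TPM) in 5 of 6 libraries, with overlapping ranges. On the right, ATP8 is lowest (15612 to 27606). Library size is not corrected on the right.

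For none of the 6 transcripts was a difference between IWR-1 and DMSO detected. At an adjusted p under 0.05, 0 of the 6 were called by the edgeR quasi-likelihood test with Benjamini-Hochberg adjustment over 16524 transcripts, of which 0.00605% were called. At an unadjusted p under 0.05 there were also 0 of 6, against 7.24% of all transcripts. With the embryo as block, 0 of 6 had an unadjusted p under 0.05, against 8.33% of all transcripts. DESeq2 called 0 of 6 without the block, against 1.18% of all transcripts, and 0 of 6 with it, against 1.52%. For 0 of 6 did the CPM of the groups not overlap, which was so for 16.0% of all transcripts. The fold changes were small: 5 of 6 transcripts were higher in IWR-1, with a median log2 fold change of 0.06 over the 6, against -0.01 over all 16524. In the values that follow, CPM are estimated counts relative to TMM-scaled library size, and the libraries of each group are given in the order of embryos 35, 39 and 40.

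For complex III, CYTB had 3388, 3844 and 4256 CPM in IWR-1, against 4133, 3619.9 and 4120.3 CPM in DMSO. The groups overlapped, and the lowest and the highest value were both in IWR-1. Mean abundance was 3829 ± 434 CPM for the IWR-1 otocysts and 3958 ± 293 CPM for the DMSO otocysts (SD, n = 3 each). The log2 fold change was -0.05 ± 0.13 (SE), with an edgeR adjusted p of 0.953. The 95% interval of that change ran from -0.34 to 0.25, that is, from 0.79 to 1.19 times the DMSO level. CYTB was the only one of the 6 with a fold change below 0, and that sign turned when libraries were scaled by total counts (0.02) and on log2(TPM + 1) (0.06). Those scales also moved the median over all transcripts, to 0.06 and 0.10, so that CYTB was still below the median.

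For complex IV, COX1, the catalytic subunit, had 4682, 5084 and 5111 CPM in IWR-1, against 5345, 3771 and 4178 CPM in DMSO. The IWR-1 values lay close together and the DMSO values were spread, with the DMSO otocyst of embryo 35 the highest of all otocysts and the other DMSO otocysts the lowest. Mean abundance was 4959 ± 240.3 CPM for the IWR-1 otocysts and 4432 ± 817 CPM for the DMSO otocysts (SD, n = 3 each). The log2 fold change was 0.16 ± 0.15 (SE), with an edgeR adjusted p of 0.838. This was the widest difference among the 6, and its 95% interval, -0.18 to 0.51, reached from 0.88 to 1.42 times the DMSO level. It was 0.33 (edgeR unadjusted p = 0.0315, adjusted p = 0.458) without the DMSO library of embryo 35 and 0.06 without the DMSO library of embryo 39.

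COX2, the subunit that receives electrons from cytochrome c, had 3535, 3690.4 and 3938 CPM in IWR-1, against 4221, 2985 and 3506 CPM in DMSO. All IWR-1 values fell inside the DMSO range. It averaged 3721 ± 203 CPM over the IWR-1 otocysts and 3571 ± 621 CPM over the DMSO otocysts (SD, n = 3 each). The log2 fold change was 0.06 ± 0.15 (SE), its 95% interval -0.28 to 0.40 and its edgeR adjusted p 0.948. COX3, the remaining core subunit, had 6325, 7285 and 8047 CPM in IWR-1, against 7286, 6851 and 7215 CPM in DMSO. Here it was the DMSO values that fell inside the IWR-1 range. It averaged 7219 ± 863 CPM over the IWR-1 otocysts and 7117 ± 233 CPM over the DMSO otocysts (SD, n = 3 each). The log2 fold change was 0.02 ± 0.12 (SE), its 95% interval -0.26 to 0.30 and its edgeR adjusted p 0.979.

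For complex V, ATP8, an accessory subunit, had 223, 271 and 301 CPM in IWR-1, against 276, 229.8 and 255 CPM in DMSO. ATP6, the subunit that forms the proton path, had 2649.9, 3143 and 3287 CPM in IWR-1, against 3301, 2519 and 2915 CPM in DMSO. Both showed overlapping groups, and in both the IWR-1 otocyst of embryo 35 lay below its DMSO partner. ATP8 averaged 265 ± 39.3 CPM over the IWR-1 otocysts and 254 ± 23.0 CPM over the DMSO otocysts, and ATP6 averaged 3027 ± 334 CPM over the IWR-1 otocysts and 2912 ± 391 CPM over the DMSO otocysts (SD, n = 3 each). The log2 fold change was 0.06 for ATP8 (SE 0.15, 95% interval -0.28 to 0.41; edgeR adjusted p = 0.944) and 0.06 for ATP6 (SE 0.14, 95% interval -0.28 to 0.39; edgeR adjusted p = 0.952).

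**Figure D2:**
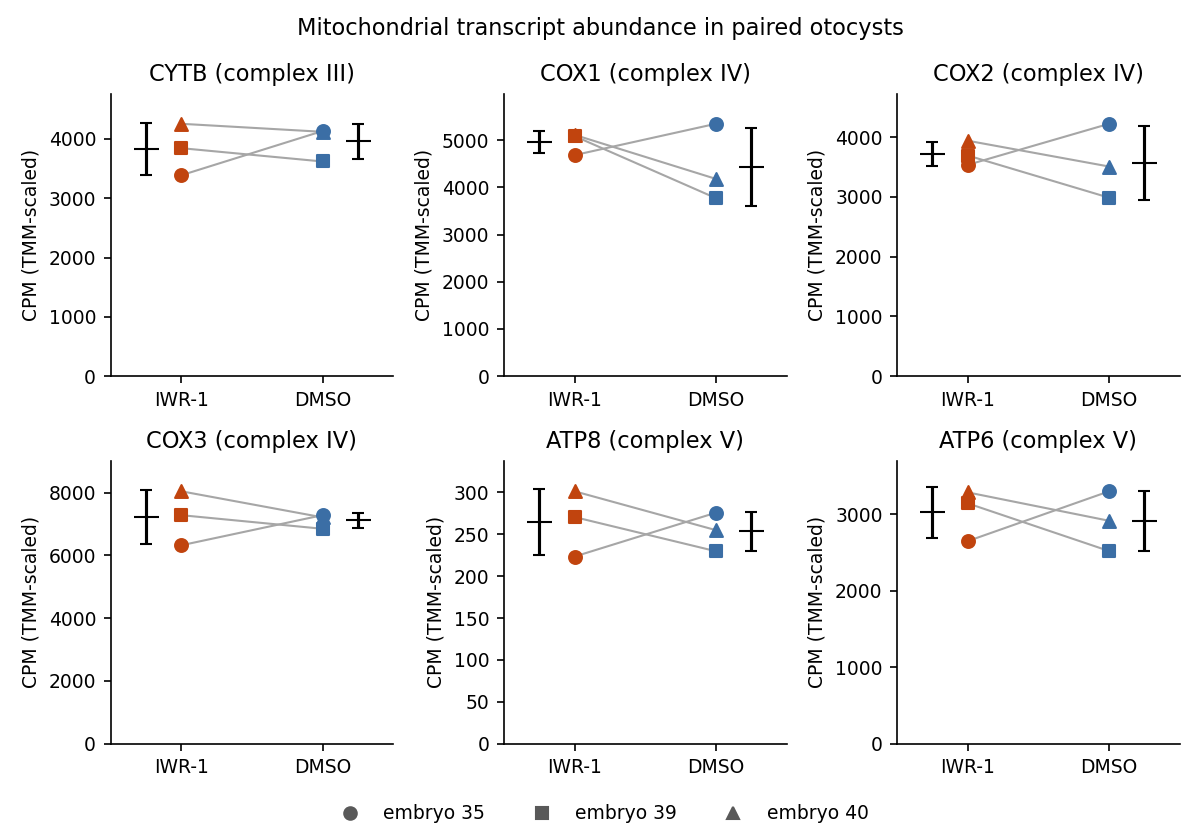
TMM-scaled CPM of each transcript in IWR-1 and DMSO otocysts, with lines joining otocysts of the same embryo number and black bars for mean ± SD (n = 3 each). In every panel the line of embryo 35 goes the opposite way to those of embryos 39 and 40.

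**Figure D3:**
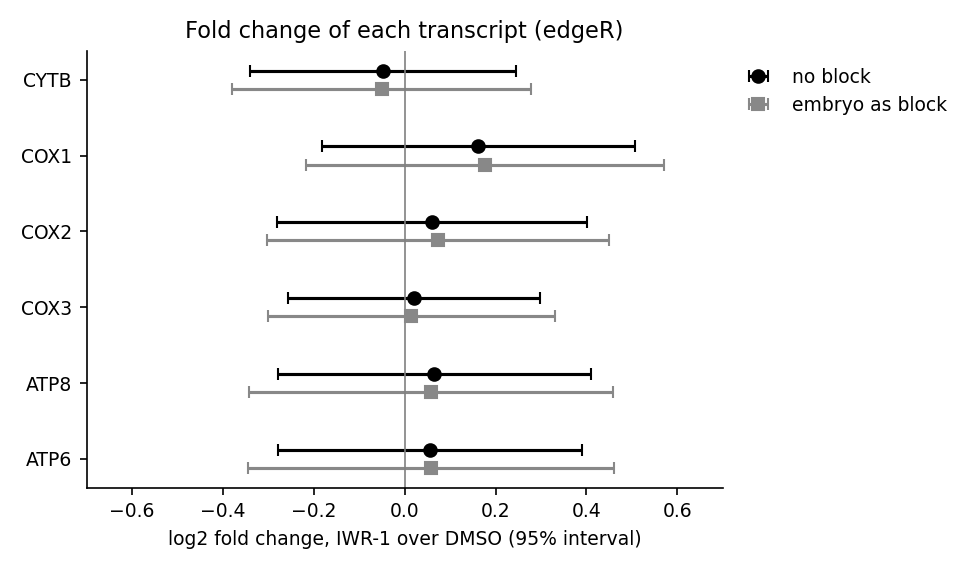
Log2 fold change of IWR-1 over DMSO with its 95% interval from the edgeR fits without a block (black) and with the embryo as block (grey). All 12 intervals include 0.

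The embryos did not move together. In embryo 35 all 6 transcripts were lower in the IWR-1 otocyst, by -0.32 to -0.19 on the log2 CPM scale. In embryo 39 all 6 were higher in IWR-1, by 0.09 to 0.43, and in embryo 40 all 6 were higher, by 0.05 to 0.29. These directions were the same for shares of library counts and for TPM. Accordingly, 0 of the 6 had the same direction in all 3 embryo pairs, against 34.6% of the 16524 transcripts. The particular pattern of lower in embryo 35 and higher in embryos 39 and 40 was shown by 11.3% of all transcripts. The comparison with that share was made after the pattern had been seen. Between pairs of the 6, log2 CPM correlated at r = 0.40 to 0.95 (Pearson, 6 libraries), so their shared direction is not 6 separate observations. Within groups, the SD of log2 CPM was 0.13 for COX3 and 0.14 for CYTB and 0.18 to 0.19 for the other 4, against a median of 0.19 over the 2442 transcripts with a mean of at least 100 CPM.

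The sign of the group difference turned for all but COX1 when single libraries were left out. The log2 fold changes of those other 5, -0.05 to 0.06, were smaller than their SEs of 0.12 to 0.15. Without the IWR-1 library of embryo 40, 2 of 6 transcripts were higher in IWR-1, and without the DMSO library of embryo 39, 1 of 6 was higher. These are the libraries with shorter fragments, and without both of them 1 of 6 was higher, with a median log2 fold change of -0.10. With fragment length as a covariate, 5 of 6 were higher and the median was 0.05. With an offset for the effective length of each target in each library, the log2 fold change of ATP8 was 0.13 (edgeR adjusted p = 0.867), against 0.06 without it, and those of the other 5 ranged from -0.05 to 0.16.

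**Figure D4:**
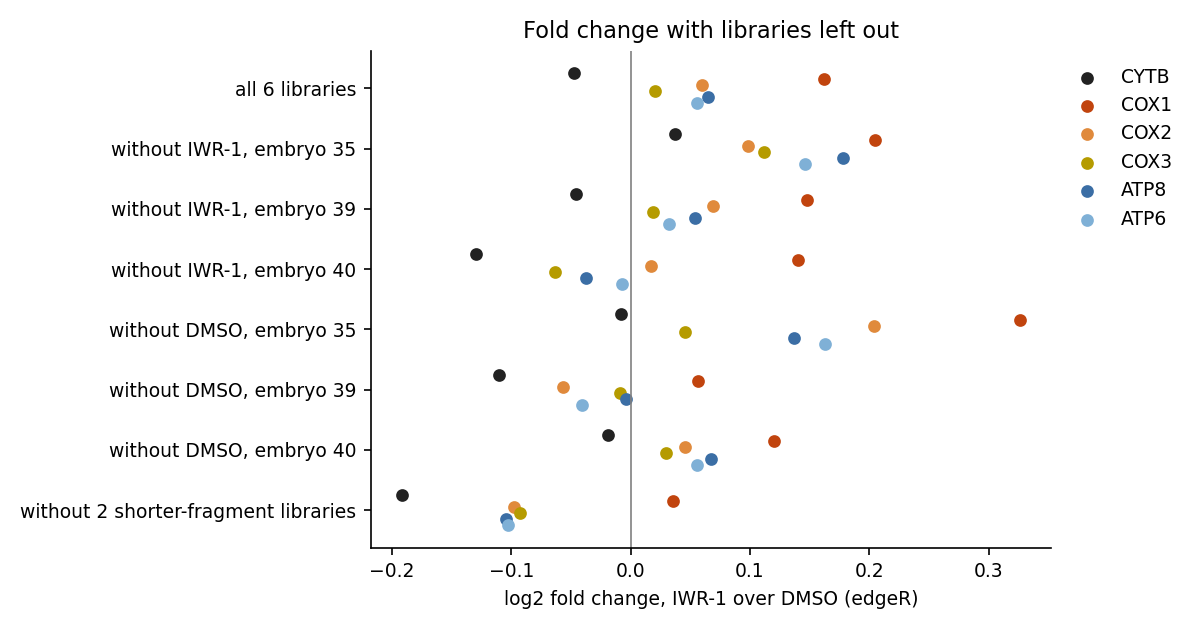
Log2 fold change of IWR-1 over DMSO (edgeR) for each transcript with all 6 libraries, with each library left out and without the 2 shorter-fragment libraries. COX1 is above 0 in all 8 settings (0.04 to 0.33), and the other 5 cross 0.

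The 6 transcripts together took 2.10%, 2.38% and 2.59% of all estimated counts in the IWR-1 otocysts of embryos 35, 39 and 40, against 2.48%, 1.83% and 2.23% in the DMSO otocysts. The Clopper-Pearson 95% intervals, which cover counting error only, were 2.092% to 2.107%, 2.370% to 2.387% and 2.579% to 2.595% in IWR-1, against 2.467% to 2.484%, 1.823% to 1.836% and 2.219% to 2.238% in DMSO. The highest share was in IWR-1 and the lowest in DMSO, and the ranges overlapped. The geometric means stood in a ratio of 1.09, IWR-1 over DMSO. The two-sided exact permutation p was 0.6, where 0.1 is the smallest that 3 against 3 allows. On log2, this difference was 0.12 with total counts and 0.05 with TMM-scaled CPM (two-sided exact permutation p = 0.7). Scaling by total counts also moved the median log2 fold change over all transcripts to 0.06.

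Ratios of estimated counts between the 6 transcripts within a library do not depend on library scaling. COX3 supplied 30.4%, 31.2% and 32.3% of the summed counts of the 6 in IWR-1, against 29.7%, 34.3% and 32.5% in DMSO. COX1 supplied 22.5%, 21.8% and 20.5% in IWR-1, against 21.8%, 18.9% and 18.8% in DMSO. CYTB supplied 16.3%, 16.5% and 17.1% in IWR-1, against 16.8%, 18.1% and 18.6% in DMSO. Within each of the 3 embryos the share of COX1 was higher and that of CYTB lower in IWR-1. The groups nevertheless overlapped for both, and the two-sided exact permutation p was 0.2 for each (0.467 after adjustment over 7 ratios). The ratio of CYTB to COX1 counts was 0.724, 0.756 and 0.833 in IWR-1, against 0.773, 0.960 and 0.986 in DMSO, again with an exact permutation p of 0.2 (adjusted 0.467). With 3 embryo pairs, a sign-flip test cannot go below 0.25, which was the value for each of these.

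Of the 15 ratios of estimated counts that can be formed between the 6 transcripts, COX1 over COX2 was the only one whose groups did not overlap. For single transcripts, the CPM of the groups did not overlap in 16.0% of all 16524. These 15 ratios were not compared between groups on the TPM scale, but the share of each transcript was. Of the 6 shares of summed TPM, that of ATP8 was the only one that did not overlap between groups. That share was 11.85%, 12.04% and 12.83% in IWR-1, against 11.70%, 11.79% and 11.53% in DMSO. Its two-sided exact permutation p was 0.1 on TPM, the smallest possible here, and was not adjusted over the 6 shares. For its share of estimated counts, where the groups overlapped, that p was 0.8. TPM divides counts by effective length. That of ATP8 was 53.2, 56.4 and 56.1 bases in IWR-1, against 56.2, 59.5 and 58.0 bases in DMSO, lower in IWR-1 within each embryo. The separation thus appeared only after division by effective length, and not in the counts. In estimated counts, COX1 over COX2 was 1.32, 1.38 and 1.30 in IWR-1, against 1.27, 1.26 and 1.19 in DMSO. Every IWR-1 otocyst thus lay above every DMSO otocyst in that ratio. The means were 1.33 ± 0.041 in IWR-1 and 1.24 ± 0.042 in DMSO (SD, n = 3 each), and the ratio of geometric means was 1.07. The two-sided exact permutation p was 0.1, the smallest possible here, and 0.5 after adjustment over the 15 ratios. This pair was picked out after all 15 had been computed. The steadiest ratio was that of CYTB to COX3, at 0.528 to 0.571 over the 6 libraries, followed by that of ATP8 to ATP6, at 0.084 to 0.092. ATP8 over ATP6 averaged 0.0874 ± 0.0039 in IWR-1 and 0.0874 ± 0.0038 in DMSO (SD, n = 3 each; two-sided exact permutation p = 1). The widest range was that of CYTB to COX1, whose highest value was 1.36 times its lowest.

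**Figure D5:**
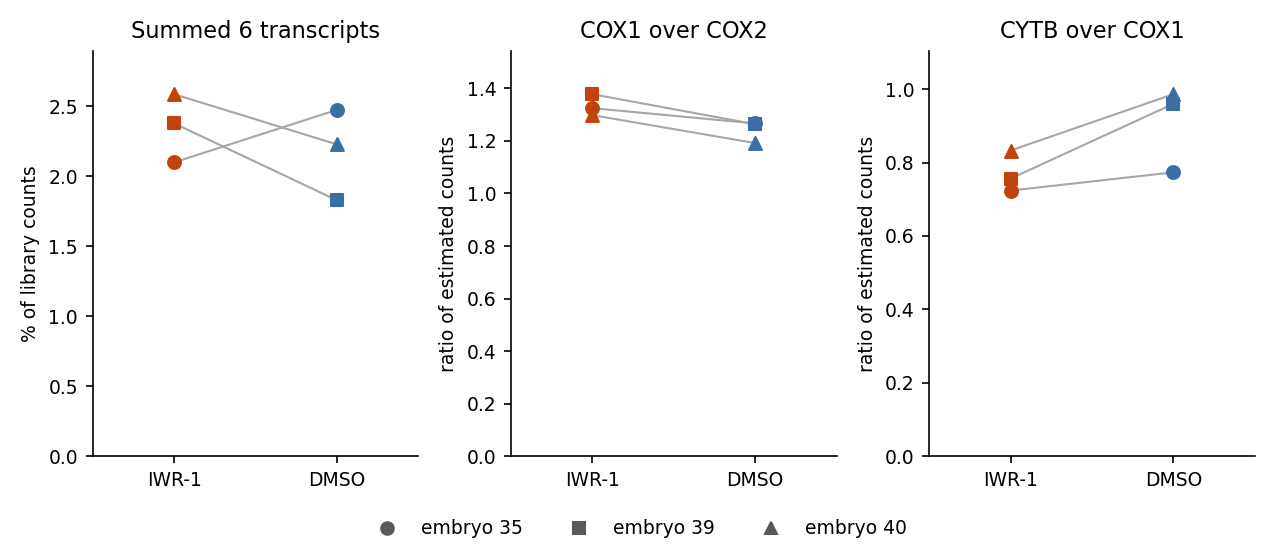
Summed counts of the 6 transcripts as percent of library counts (left), COX1 over COX2 counts (middle) and CYTB over COX1 counts (right), by otocyst, with lines joining embryos. The sum crosses between embryos (1.83% to 2.59%). COX1 over COX2 is higher in IWR-1 in all 3 embryos (1.30 to 1.38 in IWR-1, 1.19 to 1.27 in DMSO). Its two-sided exact permutation p is 0.1, the smallest possible here, and 0.5 after adjustment over 15 ratios.

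The other 7 of the 13 opening targets stand at the places of the mitochondrial complex I genes. Every one of the 6 cytochrome and ATP synthase transcripts exceeded every one of those 7 in each library, both in TPM and per 1000 bases of full length. The median TPM in the IWR-1 otocyst of embryo 35, for example, was 6239.5 over the 6 and 1076 over the 7. The 6 had 4.39, 4.97 and 5.27 times the summed counts of the 7 in IWR-1, against 4.59, 5.57 and 5.41 times in DMSO. That ratio was lower in IWR-1 within all 3 embryos, yet the groups overlapped (two-sided exact permutation p = 0.5). The sign-flip p over the embryo pairs was 0.25, the smallest that 3 pairs allow. On log2, the difference was -0.09, and it ran from -0.17 to -0.01 with single libraries left out. All 7 also followed the same embryo pattern, lower in the IWR-1 otocyst of embryo 35 and higher in those of embryos 39 and 40, on all 3 scales.

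By Pearson's correlation of log2 CPM with the log2 summed CPM of the 6, computed for 10155 transcripts with a mean of at least 10 CPM, the most alike was ENSGALT00000002404.5 (6329 bases, r = 0.988 over 6 libraries). It had 9.07, 11.9 and 13.4 CPM in IWR-1, against 12.6, 8.11 and 11.0 CPM in DMSO. The second was ENSGALT00000013395.5 (1077 bases, r = 0.969), with 25.1, 29.2 and 31.1 CPM in IWR-1, against 28.9, 24.1 and 26.4 CPM in DMSO. Among the same candidates, the 7 other mitochondrial targets had coefficients from 0.445 to 0.964 and ranked between 3 and 2083. The highest of so many coefficients over 6 libraries from 3 embryos, which share embryo and library scaling, describe these libraries only.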

How the data were processed

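Per the submitters' processing notes, reads were demultiplexed with bcl2fastq and quantified with kallisto. Versions, the transcript set, the genome build and read filters are not given in the sources used here. Per the labels' protocols, RNA of each otocyst was amplified with a SMART-Seq v4 kit, turned into Nextera XT libraries and read from both fragment ends. The authors deposited, for each library, estimated counts per target (not normalized) and TPM values, with length and effective length. No replicates were pooled.

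Estimated counts were rounded, filtered with filterByExpr (minimum count 10, minimum total 15), TMM-scaled and tested across all transcripts with the edgeR 4.0.16 quasi-likelihood test (R 4.3.3) without a covariate. Adjusted p-values are Benjamini-Hochberg values with a threshold of 0.05, and standard errors come from the F statistic. Single values were compared with exact permutation tests. Alternatives were DESeq2 1.42.0, limma 3.58.1 on log2(TPM + 1) and log2(TPM + 0.1), other scalings and filters, an effective length offset, a fragment length covariate and left-out libraries. Restriction to targets with whole-number estimates was added after the data had been seen. The same embryo number on an R and an L title pairs the otocysts, since the protocol takes both sides of an embryo. Between IWR-1 and DMSO otocysts, deviations from the group means correlated at 0.09 to 0.12 for the same embryo and at -0.09 to -0.04 for different embryos. Subtracting the group means ties these values together, so the negative ones are not separate support for the pairing. The 6 transcripts and the lists were chosen with earlier results of these data known. By rule, the 6 and the 2 transcripts most like them were named. No sequences are shown, as none were at hand.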

Additional observations from a re-analysis of the deposited data

How the results depend on the processing

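No transcript of the 6 passed the threshold in any of 21 alternatives, with adjusted p-values from 0.458 to 0.999. With the embryo as a replicate block, log2 fold changes were -0.05 for CYTB, 0.18 for COX1, 0.07 for COX2, 0.01 for COX3, 0.06 for ATP8 and 0.06 for ATP6, and no call changed. Signs of log2 fold changes were unsteady for all but COX1. CYTB turned to 0.0172 with total counts and to 0.0648 on log2(TPM + 1) and log2(TPM + 0.1). Without the 2 shorter-fragment libraries, COX2 turned to -0.0979, COX3 to -0.0925, ATP8 to -0.105 and ATP6 to -0.103. Leaving out each library gave -0.130 to 0.0372 for CYTB, 0.0561 to 0.326 for COX1, -0.0568 to 0.204 for COX2, -0.0637 to 0.111 for COX3, -0.0370 to 0.178 for ATP8 and -0.0409 to 0.163 for ATP6. For shares of the summed counts (log2, IWR-1 over DMSO) these ranges were -0.0252 to 0.0757 for COX2, -0.0936 to 0.0111 for COX3, -0.0310 to 0.0540 for ATP8 and -0.0174 to 0.0295 for ATP6, and for the summed share of the library -0.00139 to 0.217. The cause was not tested.

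The count of transcripts called in all was 1. It was 4 with 10 counts in every library, 195 with DESeq2, 251 with DESeq2 and the replicate block, 5 on log2(TPM + 0.1), 0 without the 2 shorter-fragment libraries, 7 on whole-number targets and 191 on these with the replicate block, and 0 to 1 with a library left out. The cause was not tested. All alternatives scale the same estimates. With 3 otocysts a group, the 95% intervals of the edgeR fit without a block leave room for changes of up to 1.42 times. With the embryo as block the intervals were wider, reaching up to 1.49 times for COX1 and down to 0.77 times for CYTB.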
